A study of Mus musculus with 6 samples.

Results

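The genes described here are 34 genes of the endoplasmic reticulum (ER) that fold secretory proteins, dispose of misfolded ones, or sense and answer the load of unfolded protein. They were found by matching the NCBI Gene number of each row to the 34 chosen symbols, and all 34 had a row among the 17567 rows of each file. The cells were immature dendritic cells raised from C57BL/6 mouse bone marrow. The mice were male and 6 weeks old. Marrow was cultured in 10% serum, 20 ng/mL GM-CSF and 10 ng/mL interleukin-4, and cells were collected on day 6 with CD11c magnetic beads. One group was left as control and the other was exposed to hydrogen peroxide (H2O2) at 100 µM for 24 h. The labels name no genetic change in either group. Whether separate mice or cultures stand behind the samples of a group is not given in the labels, so the p-values cover no more than the spread among these samples, and that spread may be technical.

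The labels list 3 samples in each group, but H2O2 replicate 3 held the 17567 values of H2O2 replicate 1 without a difference, so the 2 samples were counted as 1. This left 3 control and 2 H2O2 libraries with 16232594 to 16672492 estimated counts each. The libraries fell into a pair of sets, of which set A is also the one whose column headers carry no replicate suffix. Set A, control 1 and H2O2 1, held 1756 and 1608 counts over the Y-linked genes Ddx3y, Eif2s3y, Kdm5d and Uty. Control 2, control 3 and H2O2 2, here set B, held 2, 5 and 7 such counts, although the labels call all mice male. The sets are groups read from the data and not the study's groups, and what sets them apart was not tested. H2O2 was therefore compared with control in a fit with a term for the set, and the change within each set is given beside it. Levels are CPM, counts relative to the size of the library after TMM scaling.

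The ER lumen holds chaperones that bind nascent chains, lectins that retain glycoproteins, and oxidoreductases that make and rearrange disulfide bonds, with ERO1 enzymes passing electrons to oxygen and yielding hydrogen peroxide. Chains that do not fold are moved back to the cytosol for destruction by the proteasome. When unfolded protein accumulates, the membrane sensors IRE1, PERK and ATF6 leave the chaperone BiP and signal to the nucleus through spliced XBP1, ATF4 and cleaved ATF6, which together are called the unfolded protein response. In dendritic cells the IRE1 and XBP1 branch is known for its part in development, survival and antigen presentation. The counts do not separate spliced from unspliced Xbp1 RNA, and they hold no measure of sensor phosphorylation or cleavage.

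Among the 33 members tested, 7 were higher after H2O2, and over all 12209 genes tested 3.93% were called higher. Herpud1 was the 1 member that fell, against 4.61% of all genes, and the other 25 were not called. In either direction 8.54% of all genes were called. The calls are from edgeR's quasi-likelihood test with the set term, at an adjusted p of at most 0.05. The 7 that rose were the BiP gene Hspa5, its exchange factor Hyou1, its co-chaperone Dnajb9, Calr, Manf, Pdia4 and Creld2. Their increases ran from 1.30-fold to 1.74-fold, and Herpud1 was 1.26-fold lower. The median log2 change of the tested members was 0.18, beside 0.01 for all tested genes, and it was 0.18 in each set. The fitted change was positive in 28 of the 33 members (84.8%) and in 51.6% of all genes. It was positive in both sets in 25 members (75.8%, all genes 33.1%), negative in both in 3 and opposite in 5. Both H2O2 libraries lay above all controls in 13 members, while 13.0% of all genes did so, and below them in 1, with a background of 10.7%.

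These calls depend on the set term and on the libraries kept, while the median change of the members moved less. Over all genes 480 were higher and 563 lower with TMM factors, and 384 and 910 with library totals alone, which moved the median of all genes to -0.06 and left 5 members higher and 1 lower. Without the set term edgeR called 0 of 33 members and 0 of 12209 genes, the smallest adjusted p of a member being 0.702, although 6 members were higher and 1 lower at an unadjusted p under 0.05 (all genes 3.79% and 3.19%). With the set term, limma-voom called 7 members higher and 1 lower (all genes 473 and 529), and DESeq2 called 6 higher and 0 lower (all genes 387 and 510). At an unadjusted p under 0.05 DESeq2 had 12 of 34 members higher (35.3%, all genes 6.15%). It had 2 lower at that p (5.88%, all genes 6.84%), so the lower share was near the background. The log2 change without the set term was 0.55 for Hspa5 and 0.41 for Manf, beside 0.53 and 0.42 with it, and the member median was 0.18. Single members moved more. Xbp1 was at -0.48 without the set term and -0.28 with it, and Ero1a at 0.08 and 0.18. When a library was left out, Dnajb9 ran from 0.37 (without H2O2 2) to 1.10 (without H2O2 1).

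A fit without 1 library has 1 residual degree of freedom and fewer libraries behind the treatment term. Without control 2 edgeR called Hspa5 and Dnajb9 among the members, and without control 3 Hspa5 alone, with member medians of 0.19 and 0.18. Over all genes edgeR then called 254 higher and 468 lower without control 2, and 108 and 196 without control 3. Without H2O2 2 it called 0 of 33, and the treatment term then compared 1 H2O2 with 1 control library of set A, with a member median of 0.17 (all genes 1 higher and 0 lower). Without control 1 or H2O2 1 the set term takes up the lone library of set A, so the treatment term compares H2O2 2 with controls 2 and 3. The fit without control 1 called 11 members higher and 2 lower. It also called more of all genes, 1248 of 12003 higher and 816 lower, beside 480 and 563 with all libraries. Hsp90b1, Ssr1 and Xbp1 were gained in both fits, and Canx and Pdia3 in that without control 1. In the fit without H2O2 1, which holds 1 H2O2 library, Hyou1 and Creld2 lost their call. A lone library is assumed in these fits to vary like the others. For a single gene, 3 against 2 libraries cannot give an exact permutation p below 0.1.

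**Figure D1:**
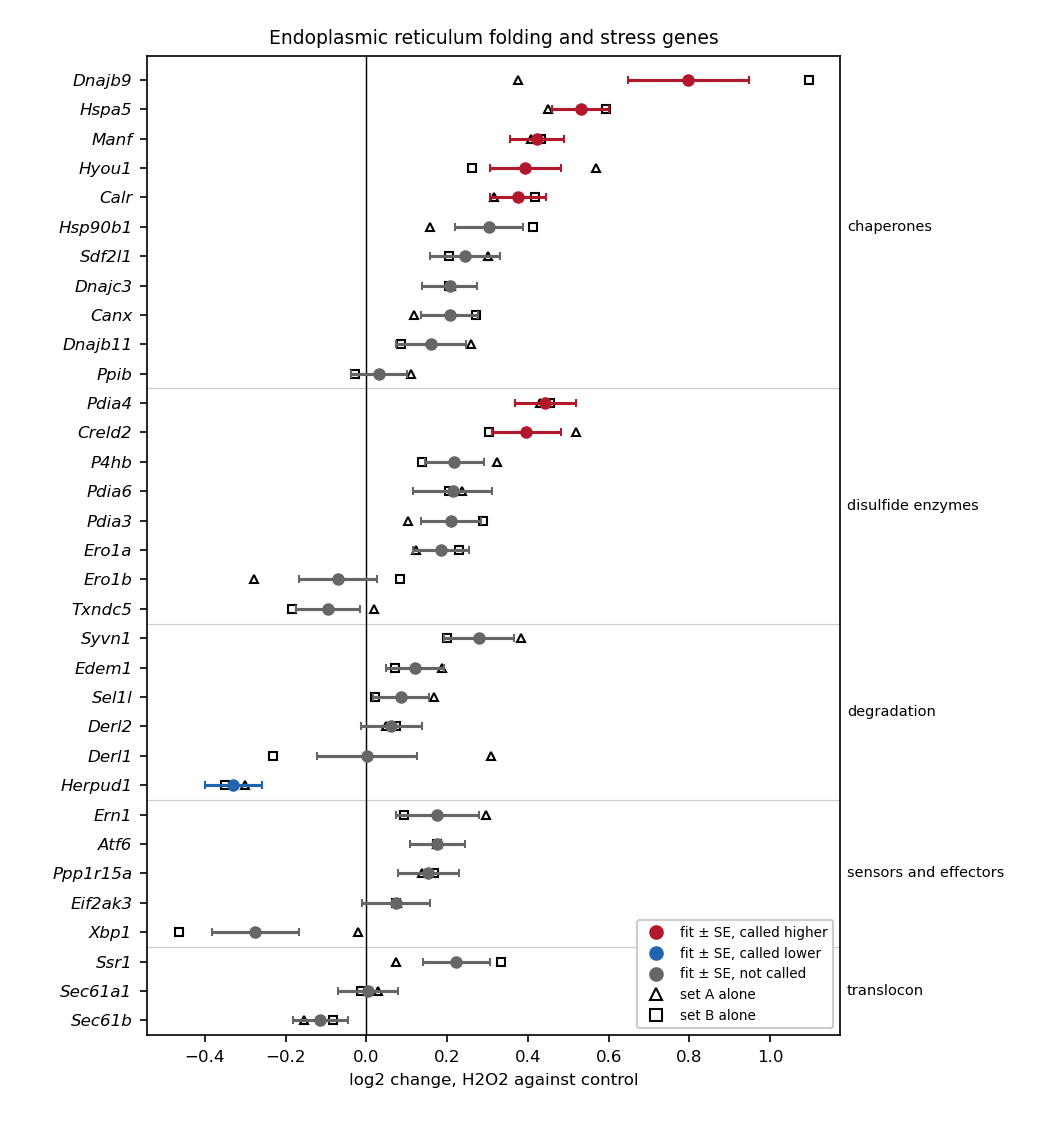
Log2 change of H2O2 against control (horizontal axis) for the 33 tested members, with the standard error of the edgeR fit as bars and the changes within set A and set B as separate points. Of the 33, 28 lie to the right of 0, and Herpud1 is the called member on the left.

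Several members carry in their promoters the ER stress response element (ERSE), the paired CCAAT and CCACG boxes read by NF-Y and by ATF6 or XBP1. The sites are shown because this element is the known control site of ER chaperone genes. Windows from 250 bases before to 50 after the start of transcription were taken from a RefSeq table of build GRCm38.p6, which held 29 of the 34 members and not Hyou1, Manf, Derl1, Atf6 or Sec61a1. The ERSE, searched on both strands as CCAAT, any 9 bases and CCACG, occurred in 10 members in 11 copies. It occurred in 39 of 32851 promoters of the table (0.119%), where a gene can have more than 1 promoter. Counted by gene, as for the members, it occurred in 15 of 9868 tested genes with a window (0.152%). These 15 include the 9 tested carriers among the members. Each copy is written in the direction of the motif, with the fixed boxes in capitals:
Hspa5: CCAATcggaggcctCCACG
Calr: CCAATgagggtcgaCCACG
Creld2: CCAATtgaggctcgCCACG
Hsp90b1, first copy: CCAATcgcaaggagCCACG
Hsp90b1, second copy: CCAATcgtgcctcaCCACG
Canx: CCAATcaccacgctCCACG
Dnajc3: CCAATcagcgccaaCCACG
Pdia6: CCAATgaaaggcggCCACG
Ero1b: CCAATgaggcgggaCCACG
Syvn1: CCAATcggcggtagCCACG
Derl3: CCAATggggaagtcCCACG
Hspa5, Calr and Creld2 rose. The other tested carriers were not called.

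The shorter ERSE-II, searched as ATTGG, any 1 base and CCACG, was found in Herpud1 and Dnajb11 and in 0.0365% of all promoters. The Herpud1 window also held TTGCATCA, the core of the amino acid response element read by ATF4 and C/EBP partners, which was found in 0.895% of promoters. The UPRE core TGACGTGG was found in Txndc5 alone among the members, and in 0.676% of promoters. Counted by tested gene, the shares were 0.0912% for the ERSE-II, 0.78% for TTGCATCA and 1% for the UPRE core. These motifs overlap in no member's window listed here. Among the 9 tested ERSE carriers 3 were higher and 0 lower, with a median log2 change of 0.28. Among the 19 members with a window but no exact match to the ERSE 2 were higher and 1 lower, with a median of 0.15. Some of these may hold a near match, which was not searched for. The 5 members without a window had 2 higher and 0 lower, with a median of 0.18. Whether these groups differ was not tested. A match says only that the letters are there, and the motifs were chosen with results of these data known.

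The 250 bases before the start are shown for Hspa5, the member called in most of the fits, and for Herpud1, the member that fell. The ERSE of Hspa5 lies 65 to 47 bases before the start on the sense strand. In Herpud1 the TTGCATCA core lies 112 to 105 bases before the start and the ERSE-II 52 to 42 bases before it. Capitals mark these matches, on the plus strand of chr2:34771840-34772089 and chr8:94386179-94386428 in GRCm38.p6:
Hspa5: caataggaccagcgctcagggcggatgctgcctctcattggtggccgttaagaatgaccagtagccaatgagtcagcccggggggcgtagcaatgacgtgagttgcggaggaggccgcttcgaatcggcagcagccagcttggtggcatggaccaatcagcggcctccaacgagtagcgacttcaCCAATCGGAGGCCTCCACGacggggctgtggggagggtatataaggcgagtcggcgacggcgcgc
Herpud1: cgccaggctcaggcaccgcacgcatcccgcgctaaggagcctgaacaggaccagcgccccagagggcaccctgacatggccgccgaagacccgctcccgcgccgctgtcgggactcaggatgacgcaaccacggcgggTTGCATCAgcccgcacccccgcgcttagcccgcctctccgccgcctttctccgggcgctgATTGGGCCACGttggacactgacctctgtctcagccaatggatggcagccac
These are exact matches, and copies that differ from a motif by a base were not searched for. Hspa5 rose and Herpud1 fell, and whether the motifs bear on these changes was not tested.

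The chaperones and their helpers held the greatest number of calls. Of 11 tested, 5 rose (45.5%), where 3.93% of all genes did in edgeR. None was called lower by edgeR, limma-voom or DESeq2, with 0 lower at an unadjusted p under 0.05 in each. Over all genes edgeR called 4.61% lower and had 14.1% lower at that p. Both H2O2 libraries lay above all controls in 8 of the 11 chaperones (72.7%, all genes 13.0%), and their median log2 change was 0.30. Their summed level was 3383, 3225 and 3375 CPM in controls 1 to 3, and 4105 and 4313 CPM in H2O2 1 and 2. The sum was 21.3% higher within set A and 30.7% higher within set B, and the groups did not overlap.

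**Figure D2:**
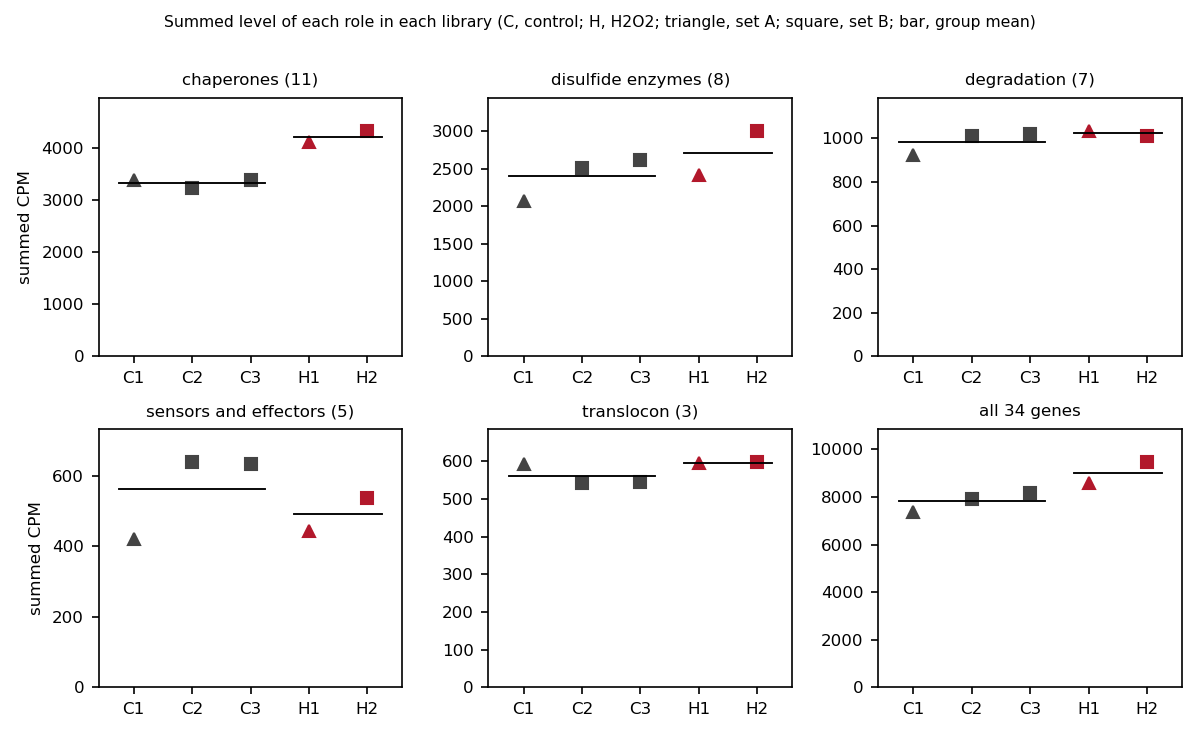
Summed CPM (vertical axes, from 0) of the members of each role in the 5 libraries, with control and H2O2 apart and the library set marked. The chaperone sum is 3225 to 3383 CPM in the controls and 4105 to 4313 CPM after H2O2, and the sensor sum overlaps between the groups.

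Hspa5 (Gene 14828, chr2:34772090-34776529) encodes BiP, the Hsp70 of the ER and the partner of all 3 sensors. It stood at 649, 554.8 and 583.9 CPM in controls 1 to 3, and at 886.2 and 858.1 CPM in H2O2 1 and 2. Every H2O2 library was above every control. The mean rose from 595.9 ± 48.2 (SD, n = 3) to 872 ± 19.9 CPM (SD, n = 2). The edgeR log2 change was 0.53 ± 0.0707 (SE), 1.44-fold, with an adjusted p of 0.0177, and it was 0.45 within set A and 0.59 within set B. Hspa5 had the smallest p of the members, and it is the member that was also called without a filter on low counts, with an adjusted edgeR p of 0.0491.

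Dnajb9 (Gene 27362, chr12:44205897-44210068), the J-domain co-chaperone ERdj4, guides BiP to IRE1 and to misfolded chains. It stood at 42.02, 37.1 and 37.01 CPM in the controls, and at 54.57 and 79.28 CPM after H2O2. Both H2O2 libraries were above all controls, and that of set B was the higher. The log2 change of 0.80 ± 0.150 (SE), 1.74-fold, was the largest among the members (edgeR adjusted p 0.0287). It was 0.38 within set A but 1.09 within set B. The difference between the sets had an unadjusted edgeR p of 0.000665 and an adjusted p of 0.0759, so it was not called. Without H2O2 2 the log2 change was 0.37 (adjusted p 0.152).

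Hyou1 (Gene 12282, chr9:44379490-44392369), the large Hsp70-related exchange factor GRP170, stood at 147.2, 171.2 and 179.9 CPM in the controls. After H2O2 it was at 218.3 and 210.4 CPM, both above the controls. The log2 change was 0.39 ± 0.0885 (SE), 1.31-fold, with an edgeR adjusted p of 0.0434. It was 0.57 within set A and, in set B, 0.26, and the difference had an adjusted interaction p of 0.280. Manf (Gene 74840, chr9:106888753-106891938), a small secreted protein that binds BiP, had the smallest standard error of the members that rose. Its controls were at 74.1, 76.26 and 77.68 CPM and its H2O2 libraries at 98.26 and 104 CPM, without overlap. The log2 change of Manf was 0.42 ± 0.0658 (SE), 1.34-fold, edgeR adjusted p 0.0222, with 0.41 within set A and 0.43 within set B.

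Calr (Gene 12317, chr8:84842088-84846931) encodes calreticulin, the soluble lectin that holds glycoproteins and MHC class I chains for folding. Its controls stood at 722.2, 708 and 749.8 CPM and its H2O2 libraries at 898.9 and 973.9 CPM. The groups did not overlap, and the log2 change was 0.37 ± 0.0692 (SE), 1.30-fold, edgeR adjusted p 0.0276. Its membrane-bound relative Canx, calnexin, was at 517.9 to 529.1 CPM in the controls and at 573.9 and 630.2 CPM after H2O2. These values did not overlap either, but the log2 change of 0.21 was not called (edgeR adjusted p 0.115).

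Hsp90b1, which encodes the ER Hsp90 GRP94, lay just outside the threshold. It stood at 769.5, 698.2 and 752.5 CPM in the controls and at 857.5 and 965.0 CPM after H2O2, again without overlap. Its log2 change was 0.30 ± 0.0835 (SE), with an edgeR adjusted p of 0.0708, while Hyou1 lay just inside at 0.0434. From set B alone Hsp90b1 was called, at 0.40 (adjusted p 0.0147) without control 1 and 0.41 (adjusted p 0.0282) without H2O2 1 in edgeR. The other BiP partners were not called. Sdf2l1, which works with the co-chaperone ERdj3, had a log2 change of 0.24 and both H2O2 libraries above the controls. Dnajb11, the gene of ERdj3, had 0.16 and Dnajc3, the co-chaperone p58IPK, had 0.21, with adjusted p of 0.286 and 0.108 in edgeR. Ppib, the prolyl isomerase cyclophilin B, was at 163.8 to 197.9 CPM in the controls and at 177 and 191.7 CPM after H2O2, a log2 change of 0.03. Its sign turned with library totals alone (-0.03) and without the set term (-0.01).

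**Figure D3:**
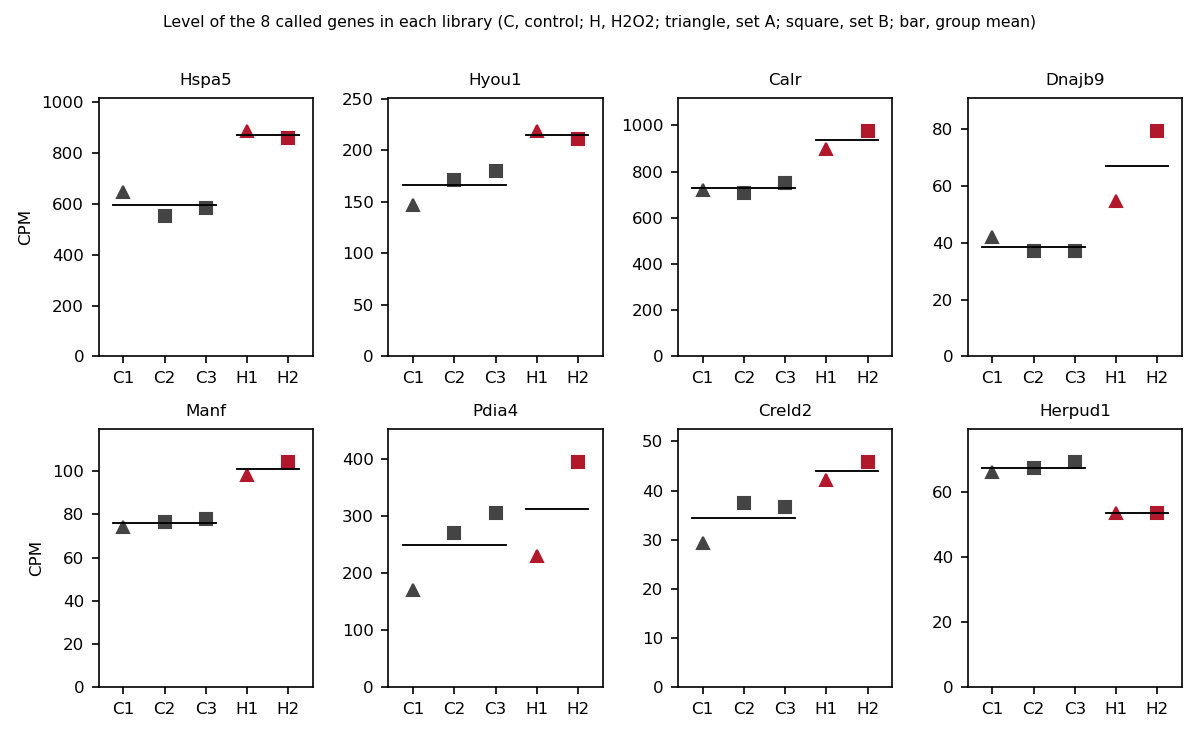
CPM (vertical axes) of the called members in each of the 5 libraries, control and H2O2 apart, with set A and set B marked. In Hspa5, Manf, Calr, Dnajb9, Creld2 and Hyou1 both H2O2 points lie above all 3 controls, in Herpud1 both lie below, and in Pdia4 the groups overlap.

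Of the 8 enzymes that make or rearrange disulfide bonds, counting Creld2 among them, Pdia4 and Creld2 rose (25%, all genes 3.93%) in edgeR. None of the 8 was called lower by edgeR, limma-voom or DESeq2, where edgeR called 4.61% of all genes lower. None was lower at an unadjusted p under 0.05 in any of these tools, where 14.1% of all genes were in edgeR. The summed level was 2068, 2513 and 2614 CPM in the controls and 2408 and 2995 CPM after H2O2. These ranges overlapped, since both libraries of set A were low. Within the sets the sum was 16.5% higher within set A and 16.8% higher within set B.

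Pdia4 (Gene 12304, chr6:47796141-47813512) encodes the oxidoreductase ERp72. It stood at 170.8, 270.3 and 304.6 CPM in controls 1 to 3 and at 230.3 and 393.4 CPM in H2O2 1 and 2. The groups overlapped over all libraries, because H2O2 1 lay between controls 1 and 2. Within the sets each H2O2 library was above its controls, by log2 0.43 within set A but 0.45 within set B. The edgeR change was 0.44 ± 0.0765 (SE), 1.36-fold, with an adjusted p of 0.0251, and 0.33 with an adjusted p of 0.869 without the set term. Creld2 (Gene 76737, chr15:88819646-88826681), a thiol-containing ER protein known as a stress-induced gene, stood at 29.29, 37.52 and 36.58 CPM in the controls. After H2O2 it was at 42.04 and 45.73 CPM, above all controls. The log2 change was 0.40 ± 0.0854 (SE), 1.32-fold, edgeR adjusted p 0.0393, and DESeq2 did not call it (adjusted p 0.0913).

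The more abundant isomerases were not called. P4hb, protein disulfide isomerase itself, was at 720.0 to 908.1 CPM in the controls and at 900.4 and 994.4 CPM after H2O2, with a log2 change of 0.22 (edgeR adjusted p 0.113). Pdia3, the glycoprotein isomerase ERp57 of the MHC class I loading complex, was at 582.6 to 612.2 CPM and then at 626.1 and 729.2 CPM. Its groups did not overlap, and its log2 change was 0.21 (edgeR adjusted p 0.125). Pdia6 had 0.21 with an adjusted p of 0.210, and Txndc5 had -0.10 with an adjusted p of 0.473.

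The ERO1 oxidases, which recharge protein disulfide isomerase and release hydrogen peroxide, were not called either. Ero1a stood at 223.6, 365.0 and 347.5 CPM in the controls and at 243.6 and 417.6 CPM after H2O2, with overlap between the groups. Its log2 change was 0.18 (edgeR adjusted p 0.140). Ero1b was at 63.96 to 73.99 CPM in the controls and at 61.02 and 69.44 CPM after H2O2. Its log2 change was -0.07, with -0.28 within set A and, in set B, 0.08, and the interaction had an unadjusted p of 0.0177 and an adjusted p of 0.243 in edgeR.

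Of the 7 degradation genes, 6 were tested, and Herpud1 was the only one called by edgeR, which called 4.61% of all genes lower. The summed level was 921.2 to 1021 CPM in the controls and 1032 and 1012 CPM after H2O2, and the median log2 change was 0.07. Herpud1 (Gene 64209, chr8:94386429-94395371) encodes a membrane protein that assembles the HRD1 ligase complex. It stood at 65.97, 67.31 and 69.08 CPM in the controls and at 53.57 and 53.44 CPM after H2O2. Both H2O2 libraries were below all controls and close to each other. The log2 change was -0.33 ± 0.0699 (SE), with an edgeR adjusted p of 0.0377, and it was -0.30 within set A and -0.35 within set B. DESeq2 gave an adjusted p of 0.0824.

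The HRD1 ligase gene Syvn1 was at 29.64, 33.05 and 34.63 CPM in the controls and at 38.67 and 38.86 CPM after H2O2. The groups did not overlap, and the log2 change of 0.28 ± 0.0861 (SE) lay outside the threshold (edgeR adjusted p 0.0927). Its partner Sel1l had 0.09 and Edem1, the lectin that hands trimmed glycoproteins to degradation, had 0.12, and neither was called. Derl1, a channel subunit of the export complex, stood at 103.5, 158.3 and 147.7 CPM in the controls and at 128.1 and 130.3 CPM after H2O2. It was higher by 0.31 in set A and lower by a log2 change of -0.23 in set B, and its interaction had an unadjusted edgeR p of 0.00241 and an adjusted p of 0.107. The fitted change of 0.00 ± 0.125 (SE) therefore combined opposite values. Derl2 had 0.06, which was -0.00294 with library totals alone, and Derl3 was too low to test, with 0 to 0.183 CPM in any library.

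None of the 5 sensors and effectors was called by edgeR, limma-voom or DESeq2. At an unadjusted p under 0.05, edgeR and limma-voom each had 1 higher and 1 lower, and DESeq2 had 1 lower. Over all genes edgeR had 13.7% higher and 14.1% lower at that p. Xbp1 was called lower in the fits that compare set B libraries alone. Atf6, the sensor cleaved in the Golgi, stood at 73.76, 73.54 and 70.36 CPM in the controls and at 83.31 and 81.23 CPM after H2O2. Its groups did not overlap, and its log2 change was 0.18 ± 0.0679 (SE), edgeR adjusted p 0.152, with 0.18 in each set. Ern1, the gene of IRE1, had 0.18 and Eif2ak3, the gene of PERK, had 0.07, both with overlapping groups. Ppp1r15a, which encodes the phosphatase subunit GADD34 that restores translation after PERK, had 0.15 (edgeR adjusted p 0.240).

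Xbp1, the transcription factor whose RNA is spliced by IRE1, was not higher in either set. It stood at 197.6, 419.5 and 434.3 CPM in controls 1 to 3 and at 194.7 and 309.1 CPM in H2O2 1 and 2. Both libraries of set A were low, and in set B the H2O2 library was below both controls. The log2 change was -0.28 ± 0.108 (SE) and was not called (edgeR adjusted p 0.156). Without control 1 it was -0.47 (adjusted p 0.00493) and without H2O2 1 it was -0.46 (adjusted p 0.0140) in edgeR, both from set B. It was -0.02 within set A and, in set B, -0.47, and the difference between the sets had an unadjusted interaction p of 0.00526 and an adjusted p of 0.150.

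The 3 translocon genes, through which new chains enter the ER, were not called by edgeR, limma-voom or DESeq2. Ssr1, a subunit of the translocon-associated complex, was at 229.8 to 256.5 CPM in the controls and at 270.1 and 299.4 CPM after H2O2, without overlap. Its log2 change was 0.22 (edgeR adjusted p 0.139), and it was the 1 gene of the 3 with an unadjusted p under 0.05, in each of these tools. Over all genes 27.8% had such a p in edgeR. Without control 1 or H2O2 1, Ssr1 was called higher by edgeR at 0.33 (adjusted p 0.0215) and 0.34 (adjusted p 0.0355), both from set B. Sec61a1, the channel itself, had 0.00, a value whose sign turned, among other settings, with RLE scaling (-0.00712) and library totals (-0.06). Sec61b had -0.11 with an adjusted edgeR p of 0.324.

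No member differed between the sets in its response at an adjusted p of at most 0.05 by the edgeR interaction test, which has 1 residual degree of freedom. Over all genes 2 of 12209 were called (0.0164%), and at an unadjusted p under 0.05 there were 5 members (15.2%), Dnajb9, Derl1, Xbp1, Ero1b and Hyou1, against 1674 of all genes (13.7%), so their share was near the background. DESeq2 and limma-voom were not run for this interaction.

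The level of several members differed between the sets more than between treatments. In the same edgeR fit 4 members were higher in set A, where 19.1% of all genes were, and 5 were lower in set A, where 16.9% were. Xbp1 was 1.89-fold lower in set A (log2 -0.92, adjusted p 0.00115), Pdia4 1.69-fold lower (adjusted p 0.000647) and Ero1a 1.64-fold lower (adjusted p 0.000506). Ern1 and P4hb were also lower in set A, by log2 differences of -0.37 and -0.25. Eif2ak3, Ppp1r15a, Sec61b and Dnajc3 were higher in set A, by log2 differences of 0.35, 0.32, 0.31 and 0.25. In either direction 27.3% of the tested members were called by set, below the 36.0% of all genes. The directions of Xbp1, Ern1, Eif2ak3 and Ppp1r15a are therefore given as levels of single genes and not as a pattern. Leaving out control 3 gave 0 members higher and 4 lower, and leaving out control 2 gave 2 and 4, in edgeR.

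**Figure D4:**
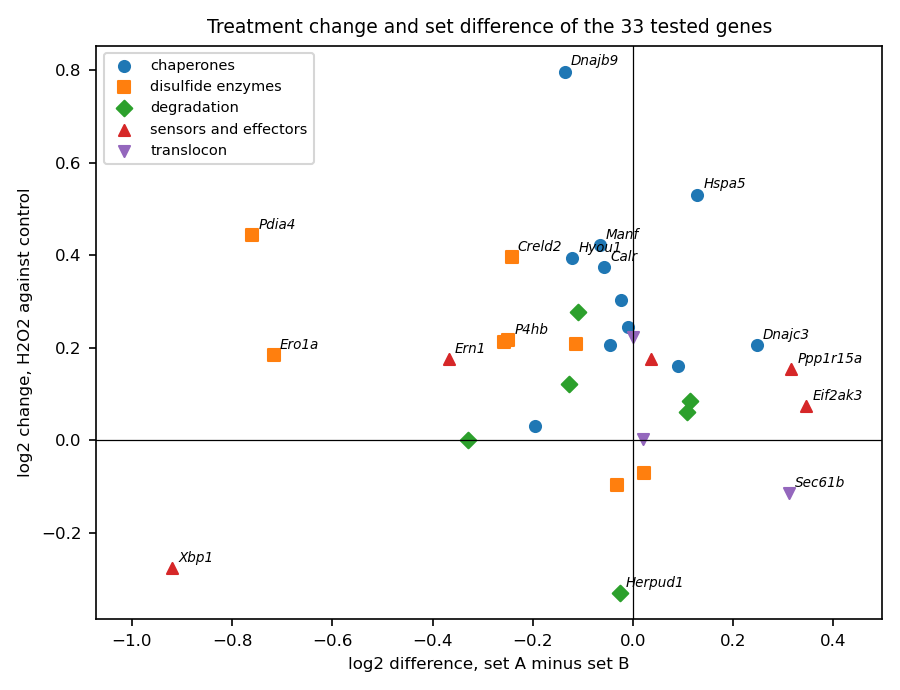
Log2 difference of set A minus set B (horizontal axis) against the log2 change of H2O2 minus control (vertical axis) for the 33 tested members, both from the same edgeR fit. Xbp1 at -0.92, Pdia4 at -0.76 and Ero1a at -0.72 lie farthest to the left, while Dnajb9 at 0.80 and Hspa5 at 0.53 lie highest.

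Compared per kilobase of exon, which allows levels to be set between genes, the control cells held most P4hb, with 294.6 ± 37.17 CPM per kb (SD, n = 3). Calr followed at 252.3 ± 7.374, then Pdia3 at 188.7 ± 5.434, Hsp90b1 at 183.5 ± 9.237 and Hspa5 at 140.9 ± 11.41 CPM per kb. The ranges over the controls overlapped between P4hb and Calr, and between Pdia3 and Hsp90b1. The sensors were far lower, with Atf6 at 7.86 ± 0.2058, Eif2ak3 at 7.066 ± 1.088 and Ern1 at 4.855 ± 0.9502 CPM per kb, while Xbp1 was at 107.9 ± 40.83. Lengths are the union of all annotated exons, which can overstate the transcribed length. The strand setting of the counts is not given in the sources used here. Exons of opposite-strand genes cover 25% of the exonic bases of Ppib, 11.9% of Txndc5, 10.3% of Hsp90b1 and 8.85% of Manf, so these values may hold reads of a neighbour.

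A further 132 genes of the same pathways had a row, of which 127 were tested. Of these, 5 rose and 5 fell, and 117 were not called. Each count is 3.94% of the list, near the backgrounds of 3.93% and 4.61%, so the list was called about as often as all genes. With the set term limma-voom called 4 higher and 4 lower, without Edem3 and Nupr1, and DESeq2 called 4 and 4, without Edem3 and Cebpg. The median log2 change was 0.06. Without the set term edgeR called 0 of the 127, with 5 higher and 3 lower at an unadjusted p under 0.05, and leaving out H2O2 2 also gave 0. Leaving out another library gave 2 to 14 higher and 1 to 6 lower. All 5 that fell belonged to the 14 genes of the PERK and ATF4 arm, which serve amino acid supply and the later stress response.

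In that arm Chac1, a glutathione-degrading enzyme, stood at 7.091, 5.922 and 6.341 CPM in the controls and at 3.074 and 3.109 CPM after H2O2. The groups did not overlap, and the log2 change was -1.08 ± 0.170 (SE), 2.12-fold lower, edgeR adjusted p 0.0223. Nupr1, a stress-induced chromatin protein, fell by 1.06 on the log2 scale (edgeR adjusted p 0.0491, limma-voom 0.0514) and was at 2.897 and 2.915 CPM after H2O2, below all controls. Asns, asparagine synthetase, fell by 0.68 (adjusted p 0.0259), from 79.2 ± 27.5 (SD, n = 3) to 44.5 ± 13.8 CPM (SD, n = 2) in edgeR, with overlapping groups. The pseudokinase gene Trib3 fell by 0.59 (edgeR adjusted p 0.0249) and Cebpg, which encodes a dimer partner of ATF4, fell by 0.33 (adjusted p 0.0416, DESeq2 0.0652). Their groups overlapped too, since control 1 lay below H2O2 2 in each.

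**Figure D5:**
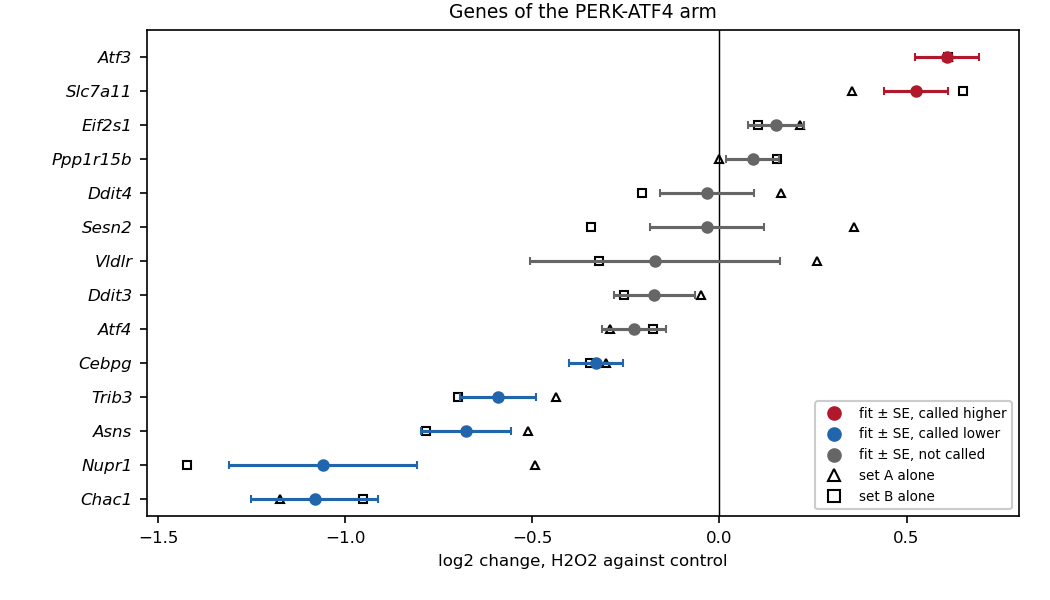
Log2 change of H2O2 against control (horizontal axis) for the 14 genes of the PERK and ATF4 arm, with the standard error of the edgeR fit and the changes within set A and set B. Atf3 and Slc7a11 lie to the right at 0.61 and 0.53, and Chac1 and Nupr1 lie farthest to the left at -1.08 and -1.06.

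A pair of genes of the arm rose. Atf3, a transcription factor induced by many stresses, stood at 246.7, 246.1 and 209.1 CPM in the controls and at 376.7 and 346.3 CPM after H2O2, without overlap. Its log2 change was 0.61 ± 0.0855 (SE), edgeR adjusted p 0.0184. Slc7a11, the cystine importer that is also known as a target of NRF2, rose by 0.53 ± 0.0846 (SE), edgeR adjusted p 0.0238, and its H2O2 libraries were above all controls. Atf4 itself was at 221.4 to 256.8 CPM in the controls and at 188.2 and 211.0 CPM after H2O2, below all controls. Its log2 change of -0.23 was not called (edgeR adjusted p 0.144), and neither was that of Ddit3, the gene of CHOP (-0.17, adjusted p 0.344). Of the arm's 14 genes 2 rose, 5 fell and 7 were not called, with a median log2 change of -0.17. Over all genes edgeR called 3.93% higher and 4.61% lower.

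Outside that arm 3 further genes rose and none was called lower by edgeR, limma-voom or DESeq2, with 3, 3 and 1 lower at an unadjusted p under 0.05 (14.1% of all genes in edgeR). Wfs1, the ER membrane protein wolframin, rose from 14.5 ± 0.399 (SD, n = 3) to 25.7 ± 4.24 CPM (SD, n = 2), a log2 change of 0.80 ± 0.119 (SE) with an edgeR adjusted p of 0.0213. Qsox1, a sulfhydryl oxidase, rose by 0.44 (adjusted p 0.0238) and the mannosidase gene Edem3 by 0.33 (adjusted p 0.0497) in edgeR, and limma-voom and DESeq2 did not call Edem3. Both H2O2 libraries were above all controls in each of the 3. Of 22 translocation and signal cleavage genes, 20 of N-glycan transfer and trimming, and 8 of ER retrieval and ER-phagy, 0 were called by edgeR, limma-voom or DESeq2. At an unadjusted edgeR p under 0.05, 6, 3 and 1 of them were higher and 0 lower, where 13.7% of all genes were higher and 14.1% lower.

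The other genes named by the rule of lowest p or highest level in each list were as follows in edgeR. Among other sensors, Creb3 had a log2 change of 0.29 (adjusted p 0.120) and the abundant Tmbim6 had 0.05. Among other folding and degradation genes, Txndc11 had 0.31 (adjusted p 0.0671), Edem2 0.28 (adjusted p 0.0647) and Vcp, the ATPase that pulls chains from the membrane, 0.16. At the translocon, Tram1 had 0.39 (adjusted p 0.110), Spcs1 0.20 and Ssr3 0.13. In glycan handling the cargo receptor Lman1 had 0.25 (adjusted p 0.0687), Ost4 0.23 and Rpn1 0.17. Tex264, a receptor of ER-phagy, had 0.39 (adjusted p 0.0513), Kdelr2 0.21 and Rtn3 0.03. None of these genes was called in edgeR.

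Markers of other cells moved with the treatment in these bulk samples, in which fewer cells of a type and less RNA per cell cannot be told apart. The calls in these lists are from edgeR, which called 3.93% of all genes higher and 4.61% lower. The dendritic markers summed to 6268 to 6857 CPM in the controls and to 4944 to 5550 CPM after H2O2, and 6 of 9 tested fell. Itgax, the gene of CD11c, was at 1473 to 2177 CPM over the 5 libraries and was not called by edgeR, and Cd209a was at most 0.3626 CPM. Dividing-cell markers were at 317.4 to 1069 and then at 175.9 to 355.4 CPM, and 10 of 10 fell. Early granulocyte genes went from 18.83 to 35.3 CPM in the controls to 9.133 to 10.64 CPM, with 3 of 6 lower, and mast cell and basophil genes, at 34.81 to 85.48 CPM in the controls, were at 11.29 to 26.88 CPM with 5 of 8 lower. Neutrophil genes summed to 549 to 1290 CPM in the controls and 963.5 to 1817 CPM after H2O2, 1 of 7 tested higher and 1 lower. Their sum was 75.5% higher within set A and 49.6% higher within set B, and all 7 were lower in set A (all genes 16.9%). The part of these shifts in the members' changes was not tested.

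Mature dendritic markers were at 7516 to 10120 CPM in the controls and 6128 to 9199 CPM after H2O2, with 4 of 8 lower (all genes 4.61%). In set A 7 of these 8 were higher (all genes 19.1%). Macrophage and monocyte markers were at 1579 to 1694 and 1631 to 1725 CPM, with 1 of 10 tested higher and 2 lower. Plasma and B cells are rich in ER chaperones, and without Sdc1, left out after its values were seen, their 9 other markers summed to 2.441 to 5.922 CPM in the controls and 1.182 to 1.231 CPM after H2O2. With Sdc1 the sums were 35 to 76.6 and 48.26 to 78.52 CPM, and none of 3 tested genes was called by edgeR. Plasmacytoid dendritic markers were at 47.07 to 51.2 and 39.73 to 44.43 CPM, with Siglech at 0 in every library and 1 of 5 tested higher and 1 lower. Eosinophil markers were at 32.32 to 58.53 and 24.74 to 32.28 CPM, with 1 of 4 tested higher and 3 lower. T and natural killer markers were at 1.162 to 2.175 and 0.7686 to 1.684 CPM. Stromal and endothelial markers were at 84.28 to 123.2 and 77.33 to 115.8 CPM with Col3a1 at 0. Only 1 T and natural killer gene and 2 stromal and endothelial genes were tested, and none was called by edgeR. The part of these lists in the members' changes was not tested.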

How the data were processed

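RNA was sequenced as DNA nanoball libraries by combinatorial probe-anchor synthesis, per the labels' protocols. The authors deposited estimated counts of reads for each gene, made without normalization, per the file headers. In each library 8.38% to 9.03% of them were fractional. HISAT, Bowtie2 and build GRCm38.p6 are named in the submitters' processing notes without roles. For the read counter, strand setting and annotation the entry is: not given in the sources used here. RefSeq symbols matched 17520 of 17567 rows (99.73%).

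Counts were rounded, filtered with edgeR's filterByExpr (minimum count 10, minimum total 15; 12209 genes kept) and scaled by TMM. edgeR 4.0.16 in R 4.3.3 tested H2O2 against control with a set term (set A: at least 100 counts over the 4 Y-linked genes) and 2 residual degrees of freedom. Benjamini-Hochberg adjustment ran over all genes tested, and SE is the absolute log2 change over the square root of F. Changes within a set are differences of log2 CPM with a prior count of 2, without a test. Alternatives were no set term, a replicate block, RLE scaling, library totals, no filter, DESeq2 1.42.0, limma-voom (limma 3.58.1), and leaving out each library. The edgeR fit was also run on counts simulated from the fitted model itself. Such counts cannot show whether the assumptions of the model hold, and no result is drawn from them. Exon lengths came from GENCODE models of the same build.

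All 34 members are named. Of each further list the most abundant gene and the 2 tested genes of lowest p are named; other genes are named where called or after their values were seen. Members, lists, motifs and the set term were chosen with earlier results of these data known. No protein sequence was used here.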

Additional observations from a re-analysis of the deposited data

How the results depend on the processing

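In edgeR with the set term 7 members were higher and 1 lower after H2O2, of all genes 480 were higher and 563 lower, and of the further pathway genes 5 and 5. Without the set term each count was 0. With the replicate block in place of the set term, members were 4 higher (Pdia4, Dnajb9, Hspa5, Manf) and 0 lower, while Hyou1, Calr, Creld2 and Herpud1 had adjusted p of 0.0606, 0.0664, 0.0957 and 0.132, all genes 220 and 334, and pathway genes 4 and 3. The numbers are shared by 2 control and H2O2 libraries each; deviations from the group means correlated at 0.81 for pair 1 and 0.714 for pair 2, but also at 0.66 for control 3 with H2O2 2, which share no number. With 2 H2O2 libraries the deviations mirror each other, so these values follow the sets, and nothing in the labels says that a number marks a shared culture. RLE scaling gave 7 and 1 members, 412 and 584 genes. Library totals alone gave 5 and 1 members, 384 and 910 genes, with a median over all genes of -0.06. Without the filter the counts were 1 and 0 members, 60 and 42 genes, and 0 and 0 pathway genes. DESeq2 gave 6 and 0 members, and limma-voom 7 and 1. Leaving out 1 library, members ranged from 0 to 11 higher and 0 to 2 lower, all genes from 1 to 1248 higher and 0 to 816 lower, and pathway genes from 0 to 14 higher and 0 to 6 lower. The counts by set were 4 members higher and 5 lower in set A, 4 and 3 with library totals, and 0 to 2 higher and 4 to 4 lower without control 2 or 3.

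Signs turned in 6 members, none of them called. The log2 change of Ppib was -0.00523 without the set term and -0.0342 with library totals. That of Derl1 was -0.0790 without the set term, -0.00955 with RLE scaling, -0.0635 with library totals, -0.00691 with DESeq2 and -0.00211 with limma-voom. Sec61a1 was at -0.0262 with the replicate block, -0.00712 with RLE scaling, -0.0612 with library totals and -0.00505 with DESeq2, and Derl2 at -0.00294 with library totals. Leaving out 1 library, Ppib ranged from -0.0371 (without control 1) to 0.109, Txndc5 from -0.192 to 0.0166 (without H2O2 2), Ero1b from -0.280 to 0.0852 (without H2O2 1), Derl1 from -0.239 (without control 1) to 0.305, and Sec61a1 from -0.0355 (without control 3) to 0.0402. Ppib and Ero1b turned without either library of set A, as did Derl1 and Sec61a1. The 8 called members kept their direction under every alternative run. The cause of these shifts was not tested. Derl3 was below the filter on low counts, so the edgeR fits with that filter say nothing of it.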

Other observations

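Over all genes 19.1% were called higher and 16.9% lower in set A. Of the 127 further pathway genes tested, 15 had higher and 29 lower levels in set A by edgeR, relative to set B, the lower ones including Ssr3, a subunit of the translocon-associated complex (log2 -0.66, adjusted p 0.00123), and Rpn1 of the oligosaccharyltransferase (log2 -0.36, adjusted p 0.0185). In the PERK and ATF4 arm 6 of 14 genes were lower in set A and 1 was higher. Asns was 1.75-fold lower in set A, Trib3 1.64-fold lower and Cebpg 1.52-fold lower, and in these 3 genes both set A libraries lay below both set B controls. These genes were chosen after their values were seen.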
